A study of Drosophila melanogaster with 2 samples.

Results

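The nuclear genes for the subunits of the oxidative phosphorylation complexes were examined for promoter peaks of the Drosophila melanogaster protein CG31224. They were taken by gene symbol (symbols starting with ND-, COX and a digit, ATPsyn or UQCR-, together with SdhA to SdhD, Cyt-c-p and Cyt-c1, without COX7AL2), which gave 85 of the 13968 coding genes on the chromosomes analysed. They comprised 40 genes of complex I, 4 of complex II, 10 of complex III, 15 of complex IV, 15 of complex V and the gene of cytochrome c. The data were peak lists from chromatin immunoprecipitation and sequencing (ChIP-seq) with an anti-GFP antibody on whole embryos aged 0 to 24 h. The embryos were of a transgenic strain that carries CG31224 fused to eGFP, and there was 1 group of 2 biological replicates, so no treatment or genotype was compared. Chromatin from whole organisms mixes every embryonic cell type and stage, and peaks from untagged embryos were not analysed here.

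Oxidative phosphorylation is the final stage of respiration in the inner mitochondrial membrane. Complexes I and II pass electrons from NADH and succinate to ubiquinone, complex III passes them on to cytochrome c, and complex IV passes them to oxygen. Complexes I, III and IV pump protons, and complex V, the ATP synthase, makes ATP as the protons flow back. A few subunits are encoded by mitochondrial DNA and the rest by nuclear genes spread over the chromosomes, and in flies many of these nuclear genes have a second copy, often used in the testis.

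A gene was called bound where the summit of a peak in the main list lay within 500 bp of any of its transcription start sites (TSSs). The main list holds peaks from both replicates together past a 1% irreproducible discovery rate (IDR). At the 3 promoters below outside complex III, the sequence within 50 bp of the summit is shown in the gene's own direction, 5′ to 3′, without annotated exons (dm6, RefSeq copy of the assembly). Each is the promoter with the highest signal in its complex among those that could be shown, and capitals mark runs of at least 6 A or T bases.
ND-ASHI: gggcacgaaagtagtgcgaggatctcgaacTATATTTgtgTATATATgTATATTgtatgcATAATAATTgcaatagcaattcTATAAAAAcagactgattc
COX5A: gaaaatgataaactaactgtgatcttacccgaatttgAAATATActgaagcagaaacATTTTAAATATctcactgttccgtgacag
ATPsynE: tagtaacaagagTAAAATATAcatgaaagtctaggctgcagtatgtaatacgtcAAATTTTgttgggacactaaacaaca
The ND-ASHI stretch is chrX:6679340-6679440 on the minus strand and holds 5 such runs. The COX5A stretch is chr3R:11819462-11819547 and the ATPsynE stretch chr3R:14326867-14326946, both on the plus strand with 2 runs each. A and T made up 67.3%, 67.4% and 67.5% of the bases of the ND-ASHI, COX5A and ATPsynE stretches. At UQCR-14, the bound gene of complex III, the summit lay in an exon of the neighbouring gene CG32576, so 30 bases around a DNA replication-related element (TATCGATA, in capitals) are shown, at chrX:16286215-16286244 on the plus strand.
UQCR-14: tgagtgcgataTATCGATAggtgcagtgtg

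In the main list 14 of the 85 oxidative phosphorylation genes were bound, or 16.5% (95% Wilson interval 10.1 to 25.8%), where 15.5% of all coding genes were bound. The share of the complexes' genes was thus near that of coding genes at large. In the conservative version of the main list, 12 genes (14.1%) were bound against 15.3% of coding genes. In the list of replicate 1 alone 9 genes (10.6%) were bound against 10.5%, and in that of replicate 2 alone 8 genes (9.41%) against 12.3%. In each of the 4 lists the share of all coding genes lay within the interval of the complexes' genes. The intervals cover only the counting of genes, since read depth is unknown, and no test was run over genes, which are not replicates of the experiment.

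By complex, 7 of 40 genes of complex I (17.5%, interval 8.75 to 31.9%) were bound in the main list. Complex IV had 4 of 15 (26.7%, 10.9 to 52.0%), complex V 2 of 15 (13.3%, 3.74 to 37.9%) and complex III 1 of 10 (10.0%, 1.79 to 40.4%). None of the 4 genes of complex II was bound, which leaves an upper bound of 49.0%, and Cyt-c-p, the gene of the somatic cytochrome c, was not bound. The interval of each complex held the 15.5% of all coding genes, so the order of the complexes could not be told from counting error. In the list of replicate 1 complex I had 6 bound genes, complex IV 1 and complex V 2, and in that of replicate 2 they had 6, 2 and 0. In both replicates the gene of complex I that was lost was ND-B17.

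**Figure D1:**
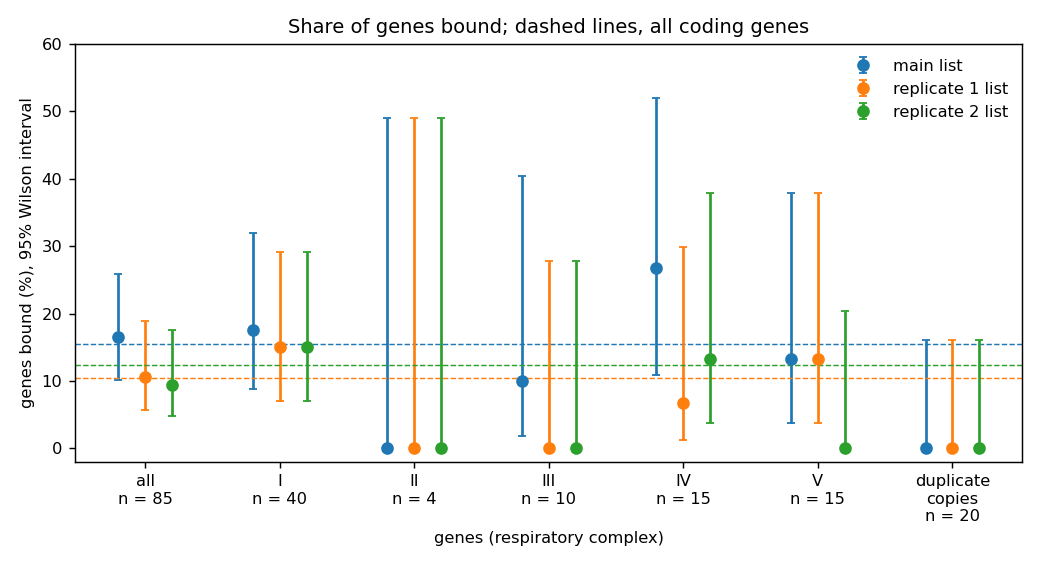
Share of genes bound (%, vertical axis) for all 85 genes, for each complex and for the duplicate copies; points are the main list and the lists of replicates 1 and 2, bars are 95% Wilson intervals and dashed lines the share of all coding genes in the same list. The points for all genes lie at 16.5%, 10.6% and 9.41%, and all 3 points for the duplicate copies lie at 0.

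Complex I takes electrons from NADH, and its core subunits carry the flavin and the iron-sulphur clusters. Of the 7 nuclear core genes 2 were bound, ND-51 and ND-24, whose products form the NADH-binding end of the complex. At ND-24 the signal value, the authors' score for a peak, of unstated scale, was 161 in the main list, 79.9 in replicate 1 and 81.2 in replicate 2. At ND-51 it was 102, 43.0 and 59.9. Values of the main list were larger than those of a single replicate throughout, so values are compared only within a list. The summits lay 83 bp downstream of the TSS of ND-24, within its 5′ UTR, and 91 bp upstream of that of ND-51. The other core genes, ND-75, ND-49, ND-30, ND-20 and ND-23, were not bound.

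Among accessory subunits of complex I, which surround the core, 5 genes were bound. ND-ASHI had the highest signal of all 85 genes, with 373 in the main list, 174 in replicate 1 and 200 in replicate 2, and its peak, at chrX:6679272-6679491, ranked 242 of the 3810 peaks of the main list by signal. ND-MWFE followed with 241, 87.9 and 158. These values were high in each replicate, although the log2 ratio of replicate 1 to replicate 2 was −0.85 at ND-MWFE. ND-SGDH had 98.3, 46.0 and 55.5, and ND-42 had 78.9, 40.4 and 41.3. ND-B17 had 57.2 in the main list and was in neither replicate's thresholded list. In the ranked lists, which hold peaks before the IDR threshold, ND-B17 had 34.2 in replicate 1 and 25.1 in replicate 2.

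In complex III, UQCR-14, a small subunit of the cytochrome bc1 complex, was bound with a signal of 58.0. It passed the threshold in neither replicate's own list, had a ranked summit of 30.9 in replicate 1 and none in replicate 2, and was absent from the conservative list. It is thus the bound gene with the least support from single replicates. The genes of the large core subunits UQCR-C1 and UQCR-C2 and of cytochrome c1 (Cyt-c1) were not bound.

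In complex IV, cytochrome c oxidase, the bound genes encode 4 of the nuclear subunits that surround the mitochondrially encoded core. COX5A had 111 in the main list, 51.8 in replicate 1 and 55.6 in replicate 2. COX6B had 63.5, with ranked summits of 28.8 and 33.2, and COX8 had 51.1, with 21.3 and 34.4. COX7B had 47.6, with 15.1 in replicate 1 and 32.9 in replicate 2. COX5A passed the threshold in both replicates' lists, COX8 in that of replicate 2 and COX6B and COX7B in neither. COX5B was in the conservative list, with 52.8, but not in the main list, where the −log10 IDR of its ranked peak was 1.89 and the threshold 2.

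In complex V the bound genes were ATPsynE, for a membrane subunit that takes part in dimer formation, and ATPsynCF6, for coupling factor 6 of the peripheral stalk. ATPsynE had 102 in the main list, with 45.4 in replicate 1 and 54.4 in replicate 2. ATPsynCF6 had 73.1, with 41.2 and 32.5. Both passed the threshold in replicate 1's list and not in that of replicate 2. Of 8 genes for the membrane part and peripheral stalk 2 were bound, and of 3 genes for the catalytic head and central stalk, ATPsynbeta, ATPsyngamma and ATPsyndelta, none, which allows up to 56.1%. The alpha subunit of the same head is encoded by blw, whose symbol falls outside the 85 genes and which was bound, with 211 in the main list. The gene sun, with the synonym ATPsynepsilon, also falls outside the 85 genes and was not bound.

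**Figure D2:**
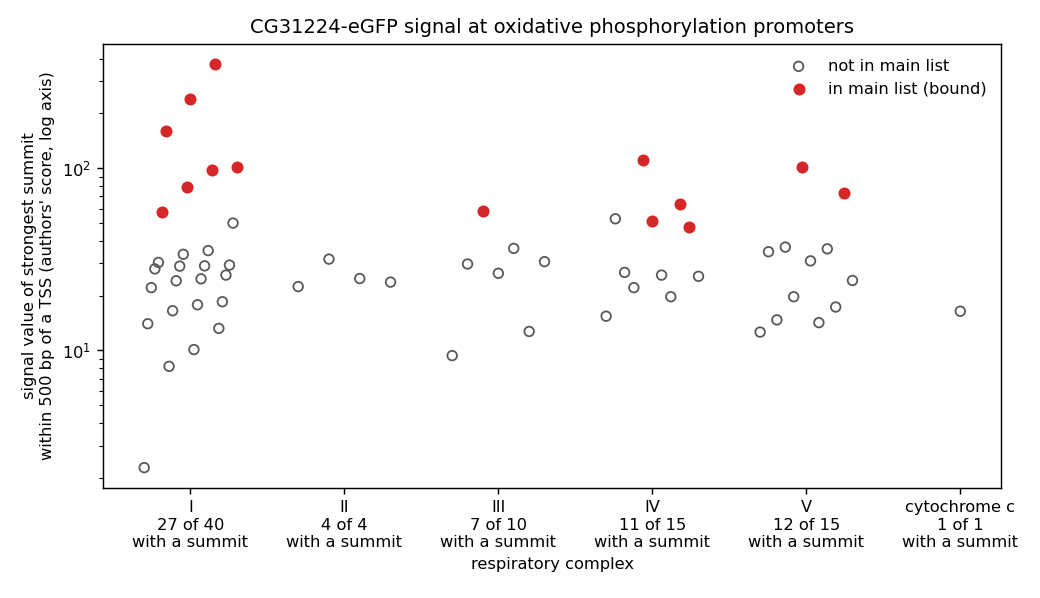
Signal value (log axis, the authors' score) of the strongest summit within 500 bp of a TSS in the series-level ranked list, for each gene with such a summit, by complex; filled points are bound in the main list and open points are not. Bound genes lie between 47.6 and 373, genes not bound between 2.27 and 52.8.

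Across the 14 bound genes, 7 were bound in both replicates' lists, 2 in that of replicate 1 alone, 1 in that of replicate 2 alone and 4 in neither. The 7 were ND-24, ND-42, ND-51, ND-ASHI, ND-MWFE, ND-SGDH and COX5A, so 6 of them belong to complex I. The same 7 were bound through main-list peaks that overlap both replicates' lists. By that rule 8.24% of the oxidative phosphorylation genes were bound, near the 8.82% of all coding genes. The other counts, and that of complex I, have no matching share over all coding genes here. Of the 14 bound genes, all but UQCR-14 had a ranked summit in each replicate. Over those 13 genes the median log2 ratio of replicate 1 to replicate 2 was −0.21 (SD 0.44), and over the 2146 bound coding genes with a summit in both it was −0.17 (SD 0.52). The replicates thus differed at these genes about as much as at other bound promoters. Signals of the 14 in the main list had a median of 88.6, and those of all bound coding genes 104.

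Most of the 71 genes that were not bound still had a weak summit. In the series-level ranked list 62 of the 85 genes (72.9%) had a summit within 500 bp of a TSS, and so did 70.0% of all coding genes. Of the genes not bound, 48 had one, with signals from 2.27 to 52.8 and a median of 24.4, and their −log10 IDR reached at most 1.89. For 20 of the 85 genes no ranked list held a summit, and no matching count over all coding genes is given here. Among these were ND-75 and ND-20 of the core of complex I, and ND-49 and ATPsynbeta, the genes on chromosome 4. Of all 80 coding genes on chromosome 4, only 1 was bound in the main list (1.25%). The nearest main-list summit lay 7892 bp away at the median of the genes not bound.

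The nearest misses by distance were few. A main-list summit lay 753 bp from a TSS of Cyt-c1, 882 bp from SdhA, the flavoprotein of succinate dehydrogenase, and 921 bp from Cyt-c-p. In complex II SdhC, a membrane anchor, followed at 1977 bp. In complex III UQCR-11L was next, at 1034 bp. In complex I the closest were ND-39 at 1550 bp and ND-B22 at 1888 bp, in complex IV COX7C at 1949 bp and COX5BL at 2286 bp, and in complex V ATPsynD at 1473 bp and ATPsyngamma, the rotor shaft, at 3664 bp.

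Duplicate copies were read from symbols that end in L, or L and a digit, after the symbol of another gene. Of the 16 copies whose base gene is among the 85, none was bound, which allows up to 19.4%. Of 20 copies, when those of genes named otherwise (levy, cype and sun) were added, none was bound, which allows up to 16.1%. No copy was bound in the conservative list or in either replicate's list. The copies in complex I were ND-20L, ND-24L, ND-49L, ND-51L1, ND-51L2 and ND-B14.5AL. Those in complex III were UQCR-11L, UQCR-14L and UQCR-6.4L. Those in complex IV were COX4L, COX5BL, COX6AL, COX6AL2, COX6CL, COX7AL and COX7CL, and those in complex V ATPsynCF6L, ATPsynGL, ATPsynbetaL and ATPsynepsilonL. In the ranked list 12 of the 20 had a summit, with signals from 8.17 at ND-24L to 35.3 at ND-20L. COX7AL2, a further copy outside the 85 genes, had a ranked signal of 593, above each of them, and was in neither the main list nor a replicate's thresholded list. Its absence does not show that its peak failed the IDR threshold. In the series-level ranked list 3944 peaks reach a −log10 IDR of 2, and the main list holds 3815 peaks. The 65 genes that are no such copy held all 14 bound genes (21.5%, interval 13.3 to 33.0%), and complex IV without its copies had 4 of 8, with an interval of 21.5 to 78.5% that lies above 15.5%. That count was 3 of 8 in the conservative list, 1 of 8 in replicate 1's list and 2 of 8 in replicate 2's. The intervals were 13.7 to 69.4%, 2.24 to 47.1% and 7.15 to 59.1%, and each holds the share of all coding genes in its list. The wider definition of copies used for these counts was set after values were seen. The intervals of the copies and of the other genes overlap, and both reach the 15.5% of all coding genes. ND-24, ND-51, UQCR-14 and ATPsynCF6 were bound while ND-24L, ND-51L1, ND-51L2, UQCR-14L and ATPsynCF6L were not.

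Some subunits carry other symbols and fall outside the 85 genes. Among 11 coding genes with a synonym of the same form 4 were bound (36.4%, interval 15.2 to 64.6%, against 15.5% of all coding genes), and 2 of these encode subunits of complexes IV and V. They were blw, for the alpha subunit of the ATP synthase, with 211 in the main list, 78.1 in replicate 1 and 128 in replicate 2, and levy, for subunit 6A of complex IV, with 212, 96.5 and 112. The others were Cox17, for a copper chaperone of complex IV, with 80.6, and Cyt-c-d, for the second cytochrome c, with 217. Cox17 was absent from replicate 1's list, and the summit at Cyt-c-d lay 352 bp downstream of its TSS. RFeSP, cype, sun, ox, NP15.6, l(3)87Df and CG40472 were not bound. With these genes added, 18 of 96 (18.8%) were bound, near the 15.5% of all coding genes.

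Summits at bound promoters lay mostly upstream of the gene's nearest TSS, and most also lay near the TSS of a facing neighbour. The summit was upstream of the gene's nearest TSS at 13 of the 14 genes, at a median of −101 bp (−272 to 83 bp), and at 86.5% of all bound coding genes, with a median of −134 bp. At 12 of the 14 a coding gene on the opposite strand also had a TSS within 500 bp of the same summit (85.7%, interval 60.1 to 96.0%), as did 1166 of the 2168 bound coding genes (53.8%). The TSSs nearest the summit were 42 to 522 bp apart, with a median of 230 bp. By annotation 8 of the 14 summits were intergenic, 3 lay in a 5′ UTR (of ND-24, Cchl and TppII), 2 in an intron (of COX5A and Fum1) and 1 in the 3′ UTR of CG32576, beside UQCR-14.

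**Figure D3:**
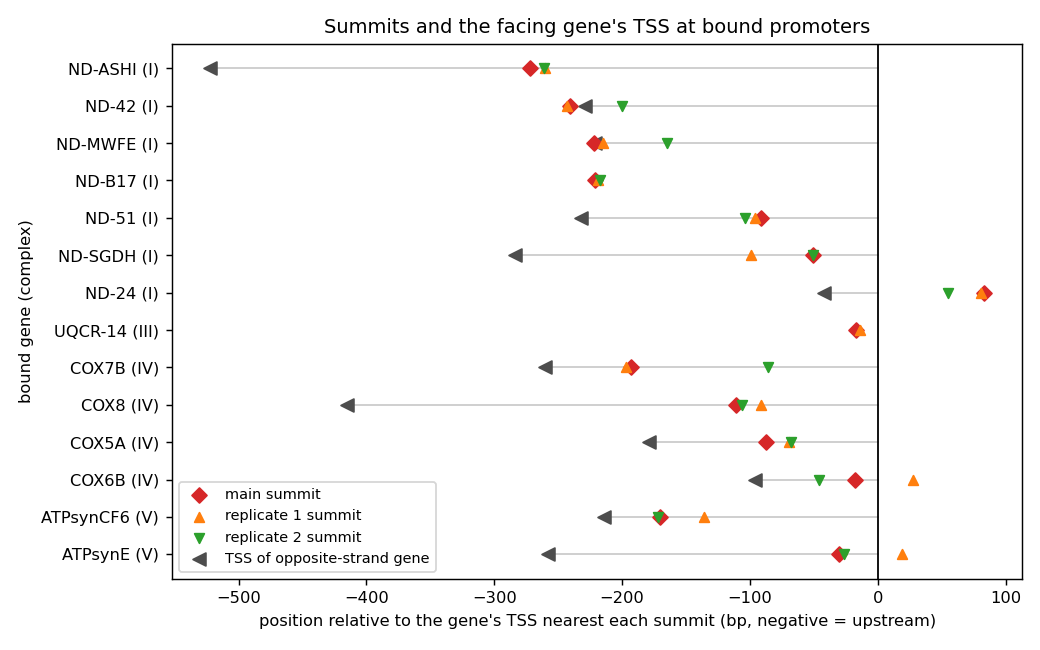
Position in bp (horizontal axis) of the main-list summit and of each replicate's strongest ranked summit relative to the nearest TSS of each bound gene, with the TSS of the opposite-strand coding gene that shares the summit where there is one. Main summits run from −272 bp at ND-ASHI to 83 bp at ND-24, and 12 of the 14 genes have a facing TSS.

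The facing genes have varied functions, and 2 of them act in mitochondrial respiration. ND-ASHI shared its summit with Fum1, for fumarase of the tricarboxylic acid cycle, at 272 and 250 bp from their TSSs. ND-42 shared its with Cchl, for the lyase that attaches haem to cytochrome c, and the stronger summit lay 12 bp from the TSS of Cchl and 241 bp from that of ND-42. A second main-list summit there, with a signal of 14.8, lay 37 bp from the TSS of ND-42 and 192 bp from that of Cchl. Further partners in complex I were TppII (ND-MWFE), for a tripeptidyl-peptidase, corolla (ND-24), for a protein of the synaptonemal complex, and CG13994 (ND-51). In complex IV they were glo (COX5A), for an RNA-binding protein that represses nanos translation, Sec3 (COX7B), of the exocyst, VhaM9.7-b (COX8), of the vacuolar proton pump, and CG33932 and Rpp20 (COX6B). In complex V they were Sec13 (ATPsynCF6), of the COPII coat and the nuclear pore, and Afti (ATPsynE). COX6B also shares its TSS with CG18809 on the same strand, ND-B17 had snRNA:U5:35D within 500 bp of its summit, and UQCR-14 had no TSS of another gene there.

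Which gene of a pair a peak belongs to cannot be told from position. The nearest TSS was that of the oxidative phosphorylation gene alone at 8 of the 14 strongest summits and that of another gene alone at 5, namely at ND-42, ND-ASHI, ND-MWFE, COX7B and ATPsynCF6. At COX6B the distance was the same to CG18809. The genes with the highest signals, ND-ASHI and ND-MWFE, are thus among those whose summit was nearer to the neighbour, which for ND-MWFE lay at 1 bp from the summit.

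The arrangement of the promoters was therefore compared, a comparison chosen after these values were seen. A gene was called head-to-head where a coding gene on the opposite strand had a TSS up to 500 bp upstream of one of its own. This held for 39 of the 85 genes (45.9%, interval 35.7 to 56.4%) and for 27.3% of all coding genes. It held for 20 of 40 genes in complex I, 7 of 15 in complex IV, 9 of 15 in complex V, 2 of 10 in complex III and 1 of 4 in complex II. Of the 20 duplicate copies 3 were head-to-head, and of the other genes 36 of 65.

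Within each arrangement the share of all coding genes lay within the interval of the complexes' genes. Of the 39 head-to-head genes 12 were bound (30.8%, interval 18.6 to 46.4%), where 30.5% of head-to-head coding genes were bound. Of the 46 others 2 were bound (4.35%, 1.20 to 14.5%), ND-B17 and UQCR-14, where 9.88% of such coding genes were bound. In replicate 1's list all 9 bound genes were head-to-head, and in replicate 2's list all 8. All coding genes were split by arrangement for the main list only, so these counts have no matching share beside them. In complex IV 4 of the 7 head-to-head genes were bound, in complex I 6 of 20 and in complex V 2 of 9. Whether the arrangement bears on the binding of these genes was not tested.

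**Figure D4:**
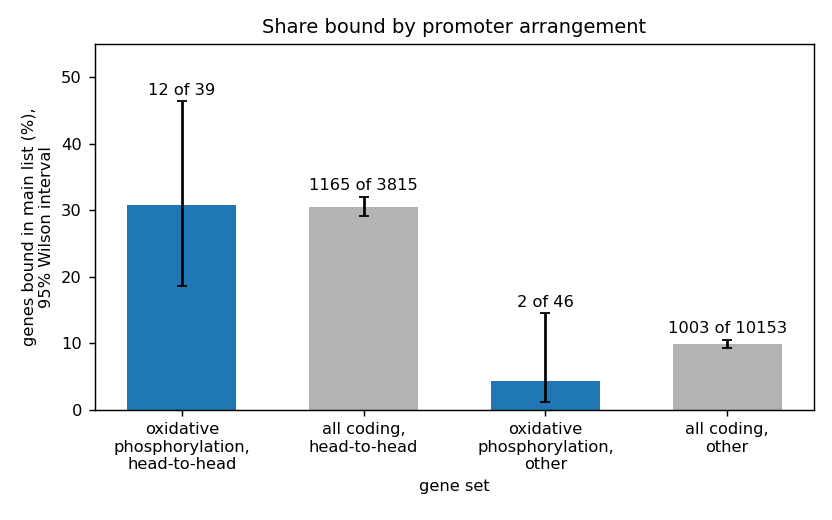
Share of genes bound in the main list (%, vertical axis from 0) for head-to-head and other genes, among the oxidative phosphorylation genes (blue) and all coding genes (grey); bars end at the share, lines are 95% Wilson intervals and the numbers are bound genes of all. Head-to-head genes of the complexes stand at 30.8% and all head-to-head coding genes at 30.5%.

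Most bases at the bound summits were A or T, as in the sequences shown above. Within 50 bp of the summit A and T made up 66.8% of bases at the median of the 14 genes (43.6 to 77.2%), and 51.7% in equally wide flanks 300 bp to the left and right. The summit had the higher share at 12 of the 14 genes, the exceptions being COX6B, with 43.6% against 48.5%, and UQCR-14, with 55.4% against 63.4%. The rise was largest at COX8, from 44.1% to 72.3%. At the 1725 main-list summits near any coding TSS the medians were 67.3% and 56.4%, and 69.8% of them had the higher share at the summit. The A/T share at the summits of the complexes' genes was thus close to that at other bound promoters. Among words of 6 letters, AAAAAT and TTAAAA, read on both strands, were each within 50 bp of the summit at 8 of the 14 genes, and at 36.5% and 32.3% of all promoter summits.

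**Figure D5:**
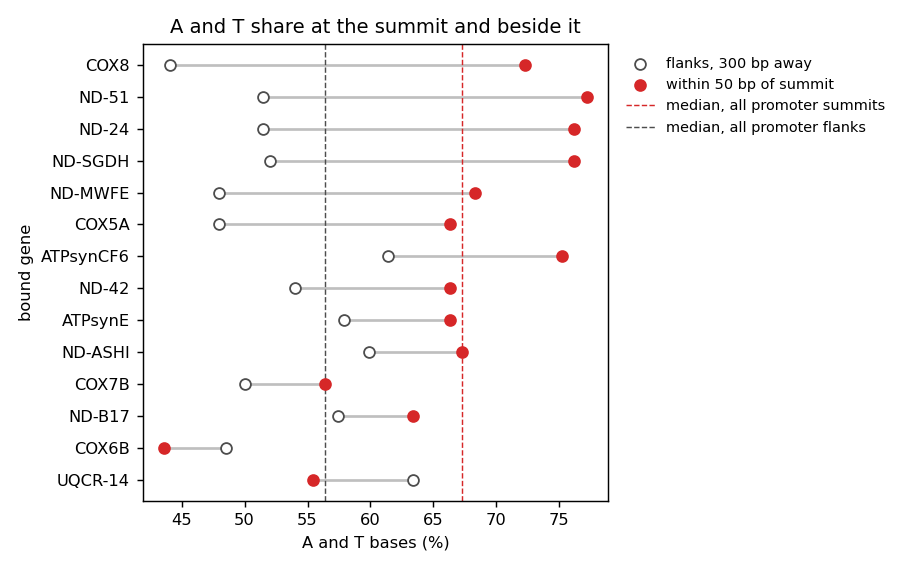
Share of A and T bases (%, horizontal axis) within 50 bp of the summit (filled) and in windows 300 bp to each side (open) for the 14 bound genes, ordered by the difference. Dashed lines are the medians of all 1725 promoter summits, 67.3% at the summit and 56.4% beside it.

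Known promoter elements were searched on both strands by their letters. The DNA replication-related element TATCGATA lay within 50 bp of the summit at UQCR-14 alone, and at 2.96% of all promoter summits. Its core CGATA, which the longer element contains, was at 6 of the 14, namely ND-24, ND-42, UQCR-14, COX6B, COX7B and ATPsynCF6, and at 19.6% of all. The letters TATAAA of a TATA box, which many A/T runs contain, were at 5 of the 14, ND-ASHI, ND-MWFE, ND-SGDH, COX5A and ATPsynCF6, and at 22.1% of all. At COX5A the match was not within the stretch shown above, which leaves out annotated exons. The initiator letters TCAGT were at ND-ASHI and COX5A, and at 16.8% of all. Of the elements tied to respiratory genes in mammals, the core of the NRF-1 site (GCGCATGC) and of the Ets site (CCGGAAG) was at none of the 14, and at 0 and 0.522% of all promoter summits. The nuclear respiratory gene element of flies was at none of the 14 and at 0.406% of all.

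Over whole promoters, from 250 bases before to 50 after the 5′-most TSS, the 85 genes differed from coding genes at large in the count of some elements, given here as a description. The core of Ohler motif 1 (GGTCACAC) was in 17 of 85 promoters (20.0%) against 7.69% of all coding promoters. It was in 4 of the 14 bound and 13 of the 71 other genes, and at none of the 14 summits within 50 bp. Ohler motif 6 was in 7 of 85 (8.24%) against 2.23%. TATCGATA was in 9 of 85 (10.6%) against 9.36%, and TCAGT in 31 of 85 (36.5%) against 51.5%. The nuclear respiratory gene element was in 0 of 85 and in 0.873% of all coding promoters. A match of letters does not show that a factor binds there.

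Genes that build or feed the respiratory chain were counted beside the subunits, from lists made with earlier results of these data known. Of 112 such genes found in the annotation 33 were bound (29.5%, interval 21.8 to 38.5%), and 47 of the 112 were head-to-head. Ubiquinone synthesis and electron entry had 7 of 15 bound (46.7%, 24.8 to 69.9%) and the tricarboxylic acid cycle with pyruvate dehydrogenase 7 of 18 (38.9%, 20.3 to 61.4%), where 15.5% of all coding genes were bound. Of these genes 8 of 15 and 9 of 18 were head-to-head. In the main list 30.5% of all head-to-head coding genes were bound, and 9.88% of the coding genes that are not head-to-head. Each list mixes these arrangements and its bound share was not split by them, so neither percentage is a matching share. Whether the arrangement bears on the shares of these lists was not tested. Complex assembly had 4 of 20, carriers and channels 3 of 14, maintenance and transcription of mitochondrial DNA 3 of 15, nuclear regulators 3 of 9 and protein import 5 of 17, each with an interval that holds 15.5%. Of 5 further genes of complexes II to IV and cytochrome c outside the symbols used, Cyt-c-d was bound. Fum1 counts here through the summit it shares with ND-ASHI.

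The bound genes with the highest signals in these lists exceeded the subunit genes in places. CIA30, for an assembly factor of complex I, had 1129 in the main list, 494 in replicate 1 and 653 in replicate 2, above the 373 of ND-ASHI. Coa8 and Ttc19, also assembly factors, had 233 and 186. Among genes of ubiquinone synthesis and electron entry Coq4 had 417, Coq7 211, Etfb, for a subunit of the electron transfer flavoprotein, 155, and qless 134. In the tricarboxylic acid cycle and its entry Idh3g, for a subunit of isocitrate dehydrogenase, had 284, Pdp 128 and Pdhb, for a subunit of pyruvate dehydrogenase, 122. The carriers Ucp4A, sea and aralar1 had 240, 220 and 102. Lon, for the matrix protease, had 437, mtSSB, for the single-stranded DNA-binding protein of mitochondria, 118, and SLIRP1 109. Of regulators, ERR, for the oestrogen-related receptor, had 159, Dref, for the factor that binds the DNA replication-related element, 126, and M1BP, for the factor that binds Ohler motif 1, 93.9. Of import genes CG11267 had 236, Hsc70-5, for the mitochondrial chaperone of the Hsp70 family, 122, Tom7 114 and ttm50 77.5. Of the genes in this paragraph, Pdp was absent from replicate 2's list, mtSSB from replicate 1's list and ttm50 from both. Coa8, Coq7, sea, aralar1, mtSSB, SLIRP1, CG11267 and Tom7 are not head-to-head. The others are, such as CIA30 with CG7601, Coq4 with CG32176 and Lon with PIG-F. Which gene of such a pair the peak belongs to cannot be told from position.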

How the data were processed

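The authors deposited peak lists in dm6 for each replicate and for both together, per the labels and the description files deposited with the samples: ranked lists, and lists past an IDR threshold. Per the labels chromatin was sonicated to 200 to 800 bp and the replicates are biological. Each deposited peak has a signal value, a score of the authors' peak caller. Not given in the sources used here: its scale, the aligner and the caller, with versions. The deposited ranked lists also hold the −log10 of the IDR, and every peak of the main list reaches 2.00 there. In the series-level ranked list 3944 peaks reach 2, so the main list, with 3815, leaves some of them out. The analysis used the 7 assembled nuclear chromosomes, which omits 5 peaks of the main list. TSSs were taken from the Ensembl annotation, release 115, and bases from the RefSeq genome of that assembly, within whose chromosome lengths every peak used fell. A ranked or replicate value is the strongest summit within 500 bp. Calls were checked on simulated summits. Python 3.11.15, pandas 2.3.3 and scipy 1.17.1 were used.

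The members and lists were chosen with earlier results of these data known. Of 135 listed pathway symbols, 112 were found. Named are bound genes, those of other thresholded lists, the 2 unbound genes nearest a main summit per complex, duplicate copies, genes sharing a summit, and up to 4 bound genes per list by signal. Sequences are of the highest signal per complex where they could be shown. The wide definition of copies, the genes under other symbols and the head-to-head comparison were added after values were seen. The facing gene at ND-SGDH is not reported here.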

Additional observations from a re-analysis of the deposited data

How the results depend on the processing

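The count of 14 bound genes stayed within 1.5 times under TSS distances of 250 and 1000 bp (13 and 17), a single 5′-most TSS (14), assignment to the gene with the nearest TSS (10, ND-42 through its weaker summit and COX6B by a tie), the conservative list (12) and the addition of genes under other symbols (18). With peaks above the median signal it was 7 (8.24%, against 9.23% of all coding genes). With peaks that overlap both replicates' lists it was 7 (8.24% against 8.82%). Where the peak interval itself had to cover a TSS it was 9 (10.6% against 8.25%). With 1 replicate left out the count was 8 to 9. Over all these settings the share of all coding genes ran from 8.25% to 18.2%.

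By complex, the distance of 1000 bp gave 1 bound gene in complex II (SdhA), 2 in complex III and 1 for cytochrome c. Leaving out a replicate gave 0 in complex III, 1 to 2 in complex IV and 0 to 2 in complex V. The conservative list gave 0 in complex III. Peaks above the median signal gave 0, 1 and 1 in complexes III, IV and V, and overlap with both replicates' lists 0, 1 and 0. Nearest-gene assignment gave 1 in complex V, and the interval rule 4 in complex I and 1 in complex V. Each of these alternatives uses fewer peaks, a narrower rule or a wider one. Duplicate copies stayed at 0 bound in every alternative run.

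The 7 genes bound in both replicates were 7 also with summits within 100 bp. The median summit position was −47.5 bp relative to the nearest TSS of any coding gene. Of 14 elements, 5 changed their count by over 1.5 times within 100 bp of the summit. Peak lists carry no read depth, so weak summits cannot be weighed by it. No paired analysis was possible because the study has 1 group.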
